A study of Homo sapiens with 6 samples.

Results

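Histones package DNA into nucleosomes, and their genes fall into groups that are expressed in different ways. Replication-dependent histone genes lie in clusters and lack introns, and their mRNAs end in a conserved stem-loop in place of a poly(A) tail. SLBP binds that stem-loop, and LSM11, a subunit of the U7 snRNP, takes part in the cleavage that forms the mRNA end. Replacement variants such as H3.3, H2A.Z and macroH2A come mostly from spliced genes with polyadenylated mRNAs that are made through the cell cycle.

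The genes described here are the GENCODE protein-coding genes with a HIST1 to HIST4 symbol, the H2AF, H3F3 and H1F variant genes, SLBP and LSM11. They number 89 of 58780 genes: 58 HIST genes whose annotated transcripts all have a single exon, 13 HIST genes with at least 1 spliced transcript, 9 variant genes with a spliced transcript, 7 variant genes with single-exon transcripts only, and SLBP with LSM11. Symbols are those of GENCODE release 29, so HIST1H4C, for example, is the gene now called H4C3. Of the 89, 63 passed the filter on low counts and were tested, and 26 did not.

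RNA-seq was run on HCT116, a human colorectal carcinoma line, with 3 biological replicates treated with auxin for 16 h and 3 given DMSO. Auxin is a plant hormone used to trigger degradation of proteins that carry a degron tag, and the labels name neither the tagged protein nor a tagging allele. All 6 libraries are therefore described by treatment only, and an effect of auxin itself cannot be told apart from an effect of losing a protein. RNA was total RNA depleted of ribosomal RNA, so mRNAs without a poly(A) tail could be sampled.

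Libraries held between 234035376 and 625892506 expected counts, and the 89 genes took between 0.291% and 0.362% of them. The replicate 1 libraries of both groups were the deepest. Of the 8 colon epithelial markers, EPCAM, CDH1, KRT8, KRT18, KRT19 and CDX2 were expressed while VIL1 and CEACAM5 were at or near 0. The 6 expressed markers were all called higher after auxin, and the summed level of the list was between 2729 and 3089 CPM in DMSO and between 3689 and 3977 CPM after auxin. Their part in the histone values was not tested. The summed leukocyte and endothelial markers stayed at or under 1.15 CPM in every library. Summed fibroblast markers ran from 1.52 to 5.31 CPM, mostly COL1A1. Levels are given as CPM, in which the counts of each library are scaled to a common total with TMM factors, and a call is an edgeR quasi-likelihood adjusted p under 0.05. Across all 19725 tested genes, 25.4% were called higher after auxin and 26.9% lower, and the CPM ranges of the groups did not overlap for 60.3%.

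The stem-loop is what sets the replication-dependent mRNAs apart, and the sequences below show it in the genes whose values follow, with 5 bases on each side. It is given in capitals, in the mRNA sense from 5′ to 3′, from GENCODE transcripts on GRCh38.
HIST1H2BD-202 (chr6:26158582-26158607, + strand): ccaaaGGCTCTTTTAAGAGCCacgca
HIST1H2BC-202 (chr6:26123467-26123492, - strand): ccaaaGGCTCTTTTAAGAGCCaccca
HIST1H2AI-201 (chr6:27808642-27808667, + strand): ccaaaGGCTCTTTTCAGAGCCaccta
HIST1H4J-201 (chr6:27824454-27824479, + strand): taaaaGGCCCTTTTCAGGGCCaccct
HIST2H4A-201 (chr1:149833027-149833052, + strand): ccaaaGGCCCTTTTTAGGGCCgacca
HIST1H3E-202 (chr6:26225591-26225616, + strand): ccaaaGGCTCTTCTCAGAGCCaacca
H2AFX-202 (chr11:119094893-119094918, - strand): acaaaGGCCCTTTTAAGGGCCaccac

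The histone stem-loop motif was found in 113 of 206694 transcripts, and 48 of these belonged to 33 of the genes described here. Among the 71 HIST genes, 32 held it, and H2AFX, the variant phosphorylated at DNA breaks, was the variant gene that did. The absence of a match carries little information for most of the others, because 31 of the genes without it have transcript models under 450 bases, which mostly stop at the coding sequence. Stems of the H4 genes differed from those of most H2A, H2B and H3 genes: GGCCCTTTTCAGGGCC occurred in 5 H4 genes, and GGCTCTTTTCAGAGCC in 17 genes of the H2A, H2B and H3 families.

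SLBP and LSM11 both fell. SLBP stood at 105.7, 104.9 and 110.8 CPM in DMSO replicates 1 to 3 and at 74.3, 74.3 and 70.1 CPM after auxin. The groups did not overlap, and the log2 fold change was -0.56 ± 0.05 (SE; edgeR adjusted p = 0.000146, n = 3 per group). LSM11 went from 21.8, 23.7 and 22.7 CPM to 14.3, 15.4 and 13.7 CPM, again without overlap, a log2 fold change of -0.65 ± 0.07 (edgeR adjusted p = 0.000293).

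Other genes of histone mRNA production moved in both directions. In a list of 32 that includes SLBP and LSM11, 8 rose and 12 fell, with a median log2 fold change of -0.05 against 0.02 for all tested genes. These shares, 25.0% and 37.5%, were near the 27.8% and 33.4% of all tested protein-coding genes. Of all tested genes 25.4% rose and 26.9% fell. NPAT, which activates transcription of the replication-dependent genes at the end of G1, fell by 0.75 on the log2 scale, and CASP8AP2 (FLASH), the partner of LSM11 in processing, fell by 0.63. SYMPK, the scaffold of the cleavage complex, fell by 1.39 and UPF1, which acts in histone mRNA decay, fell by 1.55. E2F1, a transcription factor of S-phase entry, showed the lowest value of the list at -4.59. In the other direction, SRRT (ARS2) rose by 0.72 and NCBP2, a cap-binding subunit, by 0.66. With the replicate number as a block, 13 of the list rose and 14 fell.

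S-phase markers fell in the same libraries. Of 24 fixed markers, which include SLBP, 22 fell, or 91.7%, and none rose, with a median log2 fold change of -0.88. Of all tested genes 26.9% fell and 25.4% rose, with a median of 0.02, and of tested protein-coding genes 33.4% and 27.8%. Their summed CPM was between 4437 and 5079 in DMSO and between 2341 and 2738 after auxin. Fewer cells in S phase and less RNA per cell cannot be told apart in bulk RNA, and the part of this shift in the histone values was not tested.

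**Figure D1:**
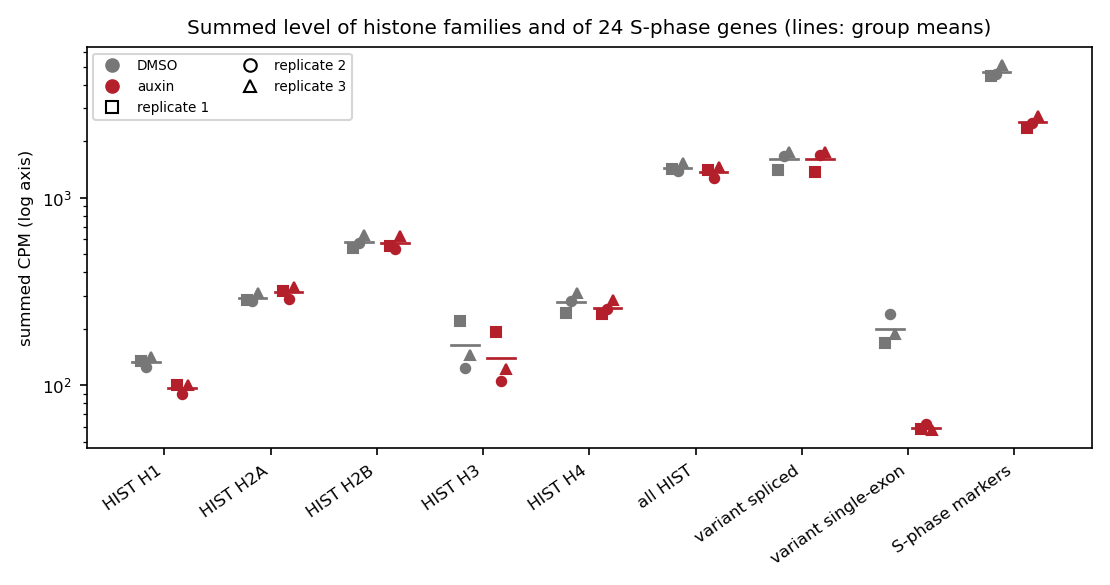
Summed CPM (log axis) of each HIST family, of all HIST genes, of the variant genes and of 24 S-phase markers in each of the 6 libraries, with points for libraries, symbols for replicate numbers and lines for group means. The H1, single-exon variant and S-phase sums do not overlap between the groups, while the sum of all HIST genes runs from 1384 to 1537 CPM in DMSO and from 1273 to 1462 CPM after auxin.

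By CPM the total HIST signal changed little beside the S-phase markers. All 71 HIST genes summed to 1446 ± 80.7 CPM in DMSO (SD, n = 3) and to 1378 ± 96.1 CPM after auxin, and the groups overlapped. Within replicate numbers 1 to 3 the log2 ratio of auxin to DMSO was -0.02, -0.12 and -0.07. By TPM, which is scaled by length and holds no TMM factors, the sums were 4131 ± 826 and 3442 ± 508, also with overlap. The log2 ratios by TPM were -0.37, -0.23 and -0.16, so each pair was lower after auxin. Sums over a family do not depend on how reads were divided between near-identical copies, and they carry no test here.

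The families differed in their sums. Linker histone H1, which binds the DNA entering and leaving the nucleosome, summed to 133.7, 124.2 and 141.1 CPM in DMSO and to 100.4, 89.9 and 99.6 CPM after auxin, without overlap. H2A sums were 291 ± 16.2 CPM in DMSO and 313 ± 22.3 CPM after auxin, and H2B sums 582 ± 47.1 and 569.6 ± 48.2 CPM, both overlapping. The H4 sums, 277 ± 33.9 and 259 ± 22.5 CPM, overlapped as well, but by TPM they did not, running from 973 to 1257 in DMSO and from 800.4 to 941 after auxin. This was not particular to H4. The spliced variant sums also overlapped by CPM and not by TPM, with ratios of auxin to DMSO of 0.998 and 0.817. For all HIST genes the ratio was 0.953 by CPM and 0.833 by TPM. As a percent of counts, with neither TMM factors nor length scaling, it was 0.897, and for H4 0.880 with overlap.

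H3 sums differed between replicate numbers as well as between treatments. They were 219.4, 123.8 and 145.0 CPM in DMSO and 191.2, 105.3 and 122.0 CPM after auxin, so that replicate 1 was 1.63 times the mean of the other two in DMSO and 1.68 times it after auxin. Within replicate numbers 1 to 3 the log2 ratio of auxin to DMSO was -0.20, -0.23 and -0.25 by CPM and -0.79, -0.57 and -0.53 by TPM, so each pair was lower after auxin although the groups overlapped. The H3.3 gene H3F3B lay the other way in replicate 1, at 0.723 and 0.685 times the mean of the other two. The replicate number is therefore also used as a block, and blocked values stand beside the genes whose call it changes.

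**Figure D2:**
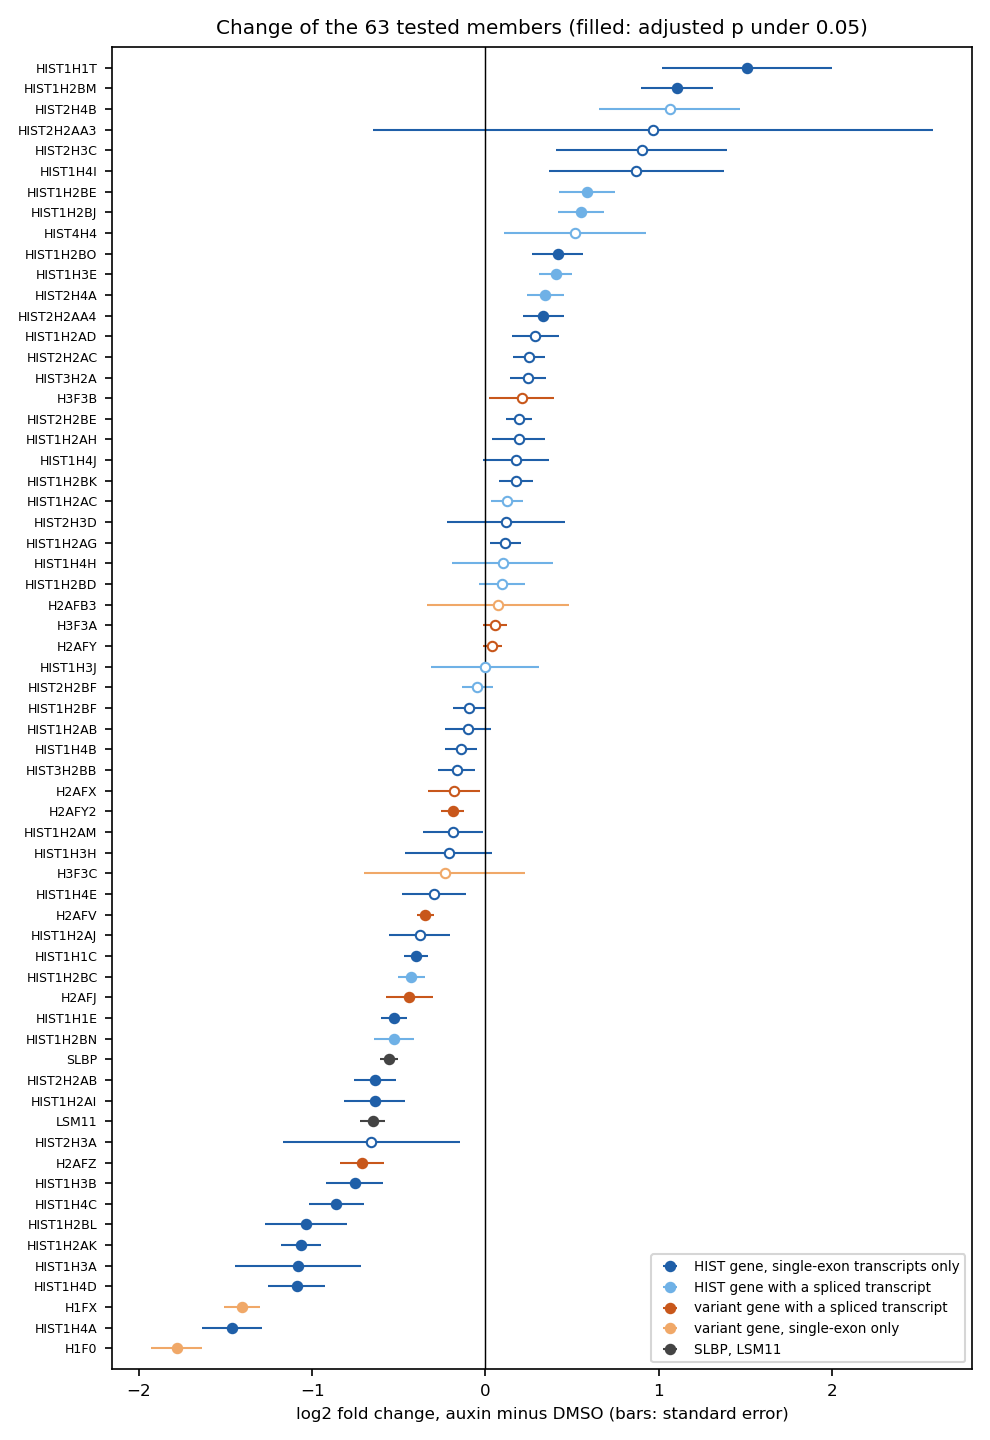
Log2 fold change (auxin minus DMSO, x axis) of the 63 tested genes in order of size, with bars for the standard error, colour for the gene class and filled points for an edgeR adjusted p under 0.05. H1F0 at -1.78 lies at the lower end, and HIST genes with single-exon transcripts spread from -1.46 to 1.51.

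Gene by gene, the 63 tested genes held 8 that rose and 21 that fell, or 12.7% and 33.3%, a median log2 fold change of -0.09. Of all tested genes 25.4% rose and 26.9% fell. In total 46.0% of the 63 were called, against 52.3% of all tested genes and 61.2% of tested protein-coding genes. Among the 36 tested single-exon HIST genes 4 rose and 11 fell, or 11.1% and 30.6%, with a median of -0.12. The share that fell was near that of all tested genes, and the share that rose was below theirs. Of 268 other tested single-exon protein-coding genes 28.7% rose and 14.9% fell, with a median of 0.18. Among the 13 HIST genes with a spliced transcript 4 rose and 2 fell, or 30.8% and 15.4%, with a median of 0.12. The 8 tested spliced variant genes held 4 that fell and none that rose (1 rose and 5 fell with the block), with a median of -0.18. By CPM the ratio of the single-exon HIST sum to the spliced variant sum was 0.679, 0.543 and 0.579 in DMSO and 0.676, 0.493 and 0.553 after auxin, with overlap. By TPM the ratio of all HIST genes to the spliced variant genes was 2.73, 2.41 and 2.60 in DMSO and 2.89, 2.37 and 2.64 after auxin, also with overlap. The difference between the classes was not tested.

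These splits depended on the scaling. Offsets corrected for GC content gave 11 higher and 5 lower among the single-exon HIST genes, upper-quartile factors gave 9 and 9, library size alone 2 and 10, and the replicate block 13 and 15. In the spliced variant genes the GC-corrected split was 1 higher and 2 lower and the upper-quartile split 2 and 2. Upper-quartile factors also moved the median of all tested genes from 0.02 to 0.15 and their calls from 5010 higher and 5311 lower to 6534 and 4416. For all tested genes GC-corrected offsets gave 5365 higher and 5255 lower. Library size alone gave 3894 and 5625, and the replicate block 7005 and 6789.

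**Figure D3:**
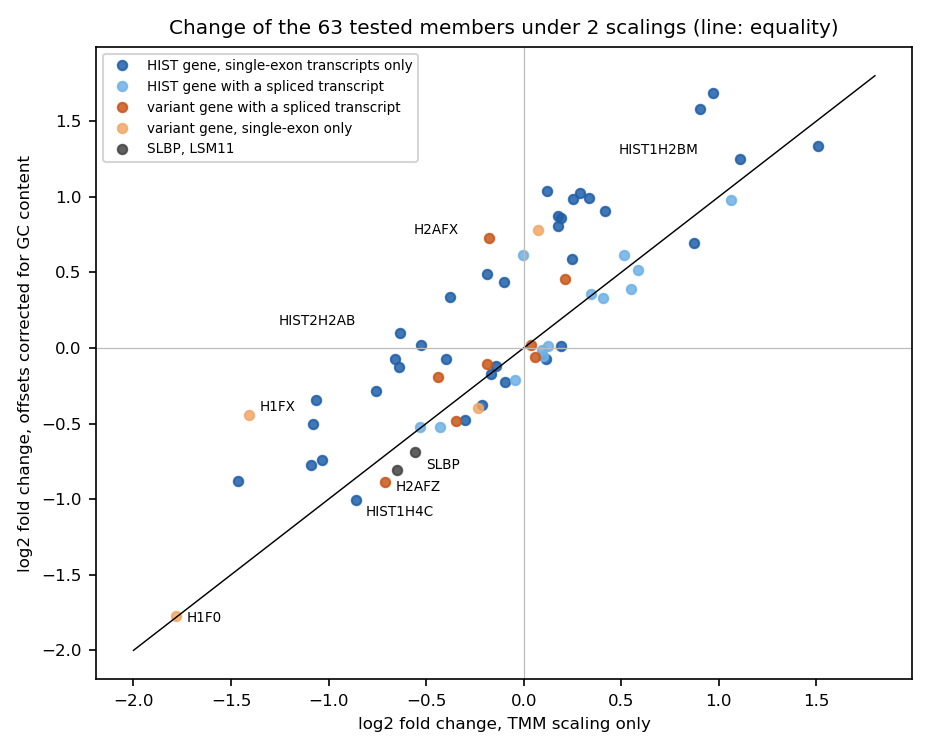
Log2 fold change of the 63 tested genes with TMM scaling (x axis) against that with offsets corrected for GC content (y axis), coloured by gene class, with the line of equality. H1F0, SLBP, H2AFZ and HIST1H4C stay near or below the line, while H1FX moves from -1.41 to -0.45 and H2AFX from -0.18 to 0.73.

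H1F0, the replacement linker histone H1.0 of slowly dividing and differentiated cells, fell furthest. It stood at 147.6, 220.9 and 169.6 CPM in DMSO and at 50.2, 55.6 and 50.6 CPM after auxin, so every auxin library was below every DMSO library by a wide margin. The log2 fold change was -1.78 ± 0.15 (SE; edgeR adjusted p = 6.91e-05), which is 3.44-fold lower. H1FX, which encodes linker histone H1.10, went from 19.8, 17.8 and 18.8 CPM to 7.98, 6.41 and 6.90 CPM. Its log2 fold change was -1.41 ± 0.10 (edgeR adjusted p = 3.95e-05), and -0.45 with GC-corrected offsets (adjusted p = 0.015). H1FX overlaps the antisense gene H1FX-AS1, and H2AFZ, LSM11, H2AFY2, HIST1H2AK, HIST2H2AB, HIST2H4A, HIST1H2BN, HIST1H2BE and HIST1H2BD each overlap a gene on the other strand. So do H2AFY, H3F3A, H3F3B, HIST2H3A, HIST2H3C, HIST2H4B and HIST2H2BF. HIST1H2BN and HIST1H2BD also overlap a gene on their own strand, HIST1H2AL and LARP1P1. Own-strand overlaps also occur for H3F3B, HIST2H2BF and HIST1H2AD, and between HIST1H2AM and HIST1H3J. The kit was stranded, but the strand setting of the counting is not given in the sources used here, so reads of such partners cannot be told apart, transcripts included.

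Of the 6 clustered H1 genes, 3 were tested. HIST1H1C went from 68.2, 63.1 and 69.9 CPM to 52.7, 47.4 and 52.4 CPM, a log2 fold change of -0.40, and HIST1H1E from 65.5, 61.1 and 71.2 CPM to 47.6, 42.4 and 47.2 CPM, a change of -0.53. Both fell by edgeR, with adjusted p = 0.00205 and 0.00108, and neither passed with GC-corrected offsets, where the values were -0.07 and 0.02. HIST1H1T, the testis H1, was called higher at 1.51 ± 0.49 but reached at most 0.188 CPM in any library, and it lost the call when any library except auxin replicate 1 was left out (highest adjusted p = 0.109). HIST1H1A, HIST1H1B and HIST1H1D were not tested and stood at or below a mean of 0.0032 CPM.

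H2AFZ and H2AFV encode the 2 forms of H2A.Z, the variant found at promoters. H2AFZ went from 227.6, 277.0 and 300.8 CPM to 141.7, 174.8 and 175.8 CPM without overlap, a log2 fold change of -0.71 ± 0.13 (edgeR adjusted p = 0.00284). H2AFV went from 77.5, 79.5 and 81.0 CPM to 60.6, 64.9 and 61.7 CPM, a change of -0.35 ± 0.05 (edgeR adjusted p = 0.00114). Both kept their direction with GC-corrected offsets, at -0.89 and -0.48.

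Among the other H2A variants, H2AFJ fell by 0.44 on the log2 scale, but without DMSO replicate 3, auxin replicate 1 or auxin replicate 2 it no longer passed (highest adjusted p = 0.103). H2AFY2, which encodes macroH2A2, fell by 0.19 with adjusted p = 0.0482 and did not pass when any 1 of the 6 libraries was left out (adjusted p from 0.0599 to 0.140). H2AFY, which encodes macroH2A1, stood between 229.4 and 241.9 CPM in DMSO and between 237.5 and 247.9 CPM after auxin and was not called. H2AFX stood at 104.1, 72.9 and 84.99 CPM and at 88.0, 66.5 and 76.7 CPM, with overlap, and was not called at -0.18 (adjusted p = 0.350). With the block it was called lower (adjusted p = 0.00111), and with GC-corrected offsets it was called higher at 0.73 (adjusted p = 0.00041), so its direction rests on the scaling.

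H3.3 was the most abundant H3 in these libraries. By TPM, H3F3A and H3F3B made up 62.3%, 76.1% and 73.7% of the summed H3 and H3.3 signal in DMSO and 69.6%, 82.0% and 80.2% after auxin. These shares depend on the lengths of the transcript models. The HIST2H3A model runs 1154 bases past the stem-loop. In DMSO replicate 1, HIST2H3A and HIST2H3C held 102.1 of the 219.4 CPM of the HIST H3 genes but 88.0 of their 664.2 TPM. H3F3B stood at 603.8, 803.4 and 867.5 CPM in DMSO and at 671.3, 952.9 and 1006 CPM after auxin, with overlap, a log2 fold change of 0.21 (adjusted p = 0.385) that was called higher with the block (adjusted p = 0.000485). On log2(TPM + 1) its value was -0.14, so its direction too rests on the scale. H3F3A was not called at 0.06. H3F3C and H2AFB3, both at under 0.1 CPM in every library, were not called, and H1FOO, H1FNT, H2AFB1 and H2AFB2 were not tested.

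**Figure D4:**
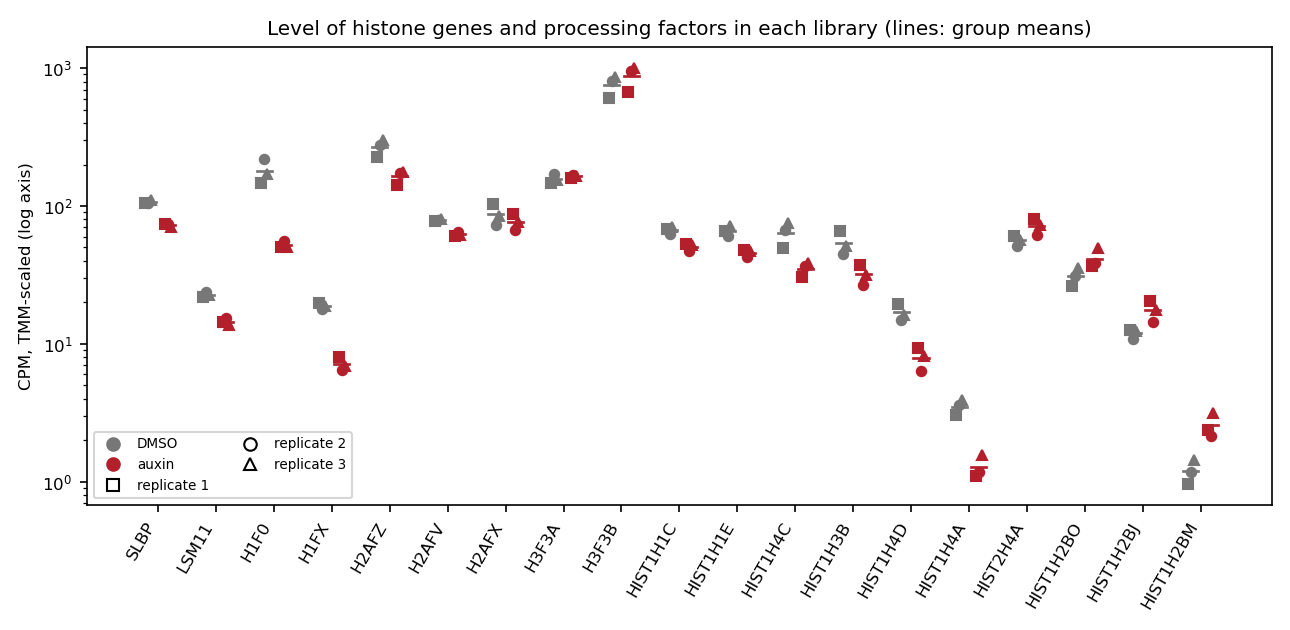
CPM (log axis) of SLBP, LSM11, variant genes and HIST genes in each library, with symbols for replicate numbers and lines for group means. The auxin libraries lie below the DMSO libraries for SLBP, LSM11, H1F0, H1FX, H2AFZ and H2AFV, and above them for HIST1H2BM and HIST1H2BJ.

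The core HIST genes that fell came from all 4 families. HIST1H4C, one of the more abundant H4 genes, went from 49.5, 66.9 and 74.8 CPM to 30.4, 36.5 and 38.3 CPM, a log2 fold change of -0.86 ± 0.16 (edgeR adjusted p = 0.00329). HIST1H4D went from 19.6, 14.9 and 16.2 CPM to 9.28, 6.33 and 8.21 CPM, a change of -1.09 ± 0.16, and HIST1H4A from 3.03, 3.58 and 3.89 CPM to 1.10, 1.17 and 1.55 CPM, a change of -1.46 ± 0.18. None of the 3 overlapped between groups, and each kept its call under all 21 alternatives. In contrast HIST1H4J, which encodes the same H4 protein, stood at 55.5, 78.6 and 88.5 CPM and at 67.5, 88.1 and 96.1 CPM and was not called at 0.18 (adjusted p = 0.479; called higher with the block, adjusted p = 0.00154).

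HIST1H3B went from 65.4, 44.8 and 51.5 CPM to 37.3, 26.8 and 31.7 CPM, a log2 fold change of -0.76 ± 0.17 (edgeR adjusted p = 0.00737), and was not called with GC-corrected offsets at -0.28. HIST1H3A fell by 1.08 on the log2 scale with adjusted p = 0.0407, a call lost without DMSO replicate 1, auxin replicate 2 or auxin replicate 3 (highest adjusted p = 0.124). HIST1H3E rose by 0.41 with adjusted p = 0.00934. HIST2H3A and HIST2H3C were uncertain one by one, because the deposited posterior SD reached 53.6% and 60.4% of the count. With the block HIST2H3C was called higher (adjusted p = 0.0133). Their summed counts gave 0.04 ± 0.34 (adjusted p = 0.927).

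H2B genes held both directions. HIST1H2BC, the most abundant H2B gene by mean CPM, went from 135.7, 137.4 and 149.5 CPM to 106.4, 95.4 and 112.1 CPM, a log2 fold change of -0.43 ± 0.08 (edgeR adjusted p = 0.00291). HIST1H2BN fell by 0.53, HIST1H2BL by 1.03 and HIST1H2BM rose by 1.11, from 0.958, 1.18 and 1.43 CPM to 2.39, 2.13 and 3.15 CPM. HIST1H2BJ rose by 0.55, from 12.6, 10.8 and 12.3 CPM to 20.3, 14.5 and 17.7 CPM. HIST1H2BO was called higher at 0.42 with adjusted p = 0.0484, and HIST1H2BE at 0.59. HIST1H2BO lost the call without DMSO replicate 1 or 2 or auxin replicate 2 or 3, and HIST1H2BE without DMSO replicate 2 or 3 or auxin replicate 1 or 3 (highest adjusted p = 0.149 and 0.0733).

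In the H2A family 3 of 14 tested genes fell and 1 rose, so 28.6% were called, against 52.3% of all tested genes. HIST1H2AK, HIST1H2AI and HIST2H2AB fell by 1.06, 0.64 and 0.64 on the log2 scale, and none was called with GC-corrected offsets, where HIST2H2AB stood at 0.10. HIST1H2AI also lost the call without auxin replicate 2 or 3 (highest adjusted p = 0.0697). HIST2H2AA4 was called higher at 0.33 with adjusted p = 0.0499 although its groups overlapped, and lost the call without DMSO replicate 1 or 2 or auxin replicate 1 or 3 (highest adjusted p = 0.154). It has the near-identical copy HIST2H2AA3, and the summed pair was higher by 0.37 ± 0.09 (adjusted p = 0.0115). The same holds for HIST2H4A, at 0.35, and its copy HIST2H4B, whose sum was higher by 0.37 ± 0.09 (adjusted p = 0.0115); alone HIST2H4A lost the call without DMSO replicate 2 or 3 or auxin replicate 1 or 3 (highest adjusted p = 0.118).

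Many HIST genes had few or no counts here. Of the 26 genes that were not tested, 12 had 0 counts in all 6 libraries, 8 of them HIST genes. In the shallowest library a count of 0 allows up to 3 counts, or 0.0135 CPM, and such limits cover counting error only. They do not cover the division of reads between copies or overlapping genes, so a count of 0 need not mean a silent gene. HIST2H2AA3 had 0 counts in DMSO replicate 3 and 2427 in DMSO replicate 2, while its copy HIST2H2AA4 had 19665 in DMSO replicate 3. HIST1H3D overlaps AL031777.3 on its own strand. HIST1H3D had 2003 counts in DMSO replicate 1 and 0 in the other 5 libraries, and it was not in the main fit. It entered 2 alternatives, where its values were lower after auxin and rest on that library alone.

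The pairing of replicates moved 19 of the 63 genes. All 19 were not called without the block and called with it, 14 higher and 5 lower, and no gene lost a call. The block also added calls across all 19725 tested genes, from 5010 higher and 5311 lower to 7005 and 6789. Among them were HIST2H2AC at 0.25, HIST2H2BE at 0.19 and HIST1H2BK at 0.17, each higher with the block.

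H2A and H2B genes often share a promoter, transcribed away from each other. There were 11 such divergent pairs with starts within 1000 bases, and both genes were tested in 9. HIST1H2AI and HIST1H2BL fell together, and no pair was called in opposite directions. With the replicate block 3 pairs were: HIST1H2AC with HIST1H2BC, HIST1H2AJ with HIST1H2BM, and HIST1H2AM with HIST1H2BO. None of the 3 stayed opposite when the block was combined with GC-corrected offsets, where HIST1H2AJ and HIST1H2AM were called higher at 0.33 and 0.48 (adjusted p = 0.0307 and 1.6e-06) and HIST1H2AC was not called (adjusted p = 0.901). In the pair HIST1H2AJ and HIST1H2BM, whose starts are 304 bases apart, HIST1H2BM rose by 1.11 while HIST1H2AJ stood at -0.38 (adjusted p = 0.114; called lower with the block, adjusted p = 0.0186). With GC-corrected offsets and no block HIST1H2AJ stood at 0.34, so its direction rests on the scaling. HIST1H2AG and HIST1H2BJ stood at 0.11 and 0.55, and HIST1H2AC and HIST1H2BC at 0.12 and -0.43. HIST1H2AG and HIST1H2AC were called higher with the block (adjusted p = 0.00988 and 0.0267). The difference within pairs was not tested.

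The promoters of HIST1H2BM and HIST1H2BL are shown because these H2B genes moved in opposite directions. Each runs from 250 bases before to 50 after the start, 5′ to 3′ in the gene's sense, from RefSeq on GRCh38.p14, where 82 of the 89 genes had an entry. Capitals mark the octamer ATTTGCAT, CCAAT and TATAAA on either strand.
HIST1H2BM (chr6:27814772-27815071, + strand): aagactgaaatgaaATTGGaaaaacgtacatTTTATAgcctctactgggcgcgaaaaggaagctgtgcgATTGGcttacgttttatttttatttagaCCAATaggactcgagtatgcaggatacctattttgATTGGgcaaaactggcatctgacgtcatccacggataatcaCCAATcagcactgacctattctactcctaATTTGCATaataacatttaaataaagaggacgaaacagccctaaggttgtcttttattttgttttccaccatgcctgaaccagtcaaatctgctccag
HIST1H2BL (chr6:27807880-27808179, - strand): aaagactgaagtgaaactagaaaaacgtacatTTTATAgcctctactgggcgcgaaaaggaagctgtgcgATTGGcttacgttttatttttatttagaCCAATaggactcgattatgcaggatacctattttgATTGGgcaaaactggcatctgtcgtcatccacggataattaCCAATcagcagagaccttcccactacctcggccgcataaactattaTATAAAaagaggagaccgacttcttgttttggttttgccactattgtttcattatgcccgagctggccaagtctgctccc

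The octamer, the site of OCT1 in H2B promoters, was present in HIST1H2BM and not in this window of HIST1H2BL. It occurred in 14 of 18 H2B and 11 of 16 H2A promoters, in 0 of 13 H4 promoters and in 1.77% of the 35116 promoters in the table. CCAAT occurred in all H1, H2A, H2B and H3 promoters matched and in 3 of 13 H4 promoters, against 34.6% of all promoters, and TATAAA in 11.5% of all. POU2F1, which encodes OCT1, fell by 0.42 on the log2 scale. The matches are descriptions of sequence, and their relation to the changes was not tested.

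Some HIST genes also have annotated spliced transcripts, and part of these lack the stem-loop. Transcripts of all genes were fitted together, and 8.43% of 83072 were called higher and 11.2% lower. Of 21 tested spliced HIST transcripts 5 rose and none fell, with a median log2 fold change of 0.65, and of 46 single-exon HIST transcripts 2 rose and 10 fell, with a median of -0.09. Transcript counts vary more between replicates than gene counts, so a transcript that was not called may still have changed.

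HIST1H2BD showed this within 1 gene. HIST1H2BD-201, of 2 exons and without the stem-loop shown above for HIST1H2BD-202, stood at 9.54, 13.2 and 12.7 CPM in DMSO and at 27.2, 36.6 and 34.8 CPM after auxin. It rose by 1.48 ± 0.18 (edgeR adjusted p = 0.00319) without overlap between the groups. HIST1H2BD-202, the stem-loop transcript, stood at 72.9, 94.9 and 102.1 CPM and at 65.3, 79.1 and 86.4 CPM, with overlap, and was not called at -0.23 (called lower with the block, adjusted p = 0.027). The spliced share of the gene was 11.6% ± 0.57 in DMSO and 29.9% ± 1.53 after auxin (SD, n = 3). HIST1H2BD as a gene was not called, at 0.10 (called higher with the block, adjusted p = 0.0253).

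Other spliced transcripts that rose were HIST1H2AC-203, HIST1H2BN-203, HIST2H4A-203 and HIST2H4A-204, by 1.71, 1.15, 1.60 and 1.14 on the log2 scale. The first 2 lack the stem-loop motif and the HIST2H4A transcripts hold it. HIST1H2BD-201, HIST1H2BN-203 and HIST2H4A-203 kept their calls with each library left out, whereas HIST1H2AC-203 lost it without DMSO replicate 1 or 3 or auxin replicate 2 or 3 and HIST2H4A-204 without any library except auxin replicate 2 (highest adjusted p = 0.0893 and 0.131). HIST1H2BC-201, also spliced and without the motif, stood at 0.78 and was not called (adjusted p = 0.0998), while the stem-loop transcript HIST1H2BC-202 fell by 0.44, a call lost without DMSO replicate 2 or 3 or auxin replicate 1 or 2 (highest adjusted p = 0.0774).

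**Figure D5:**
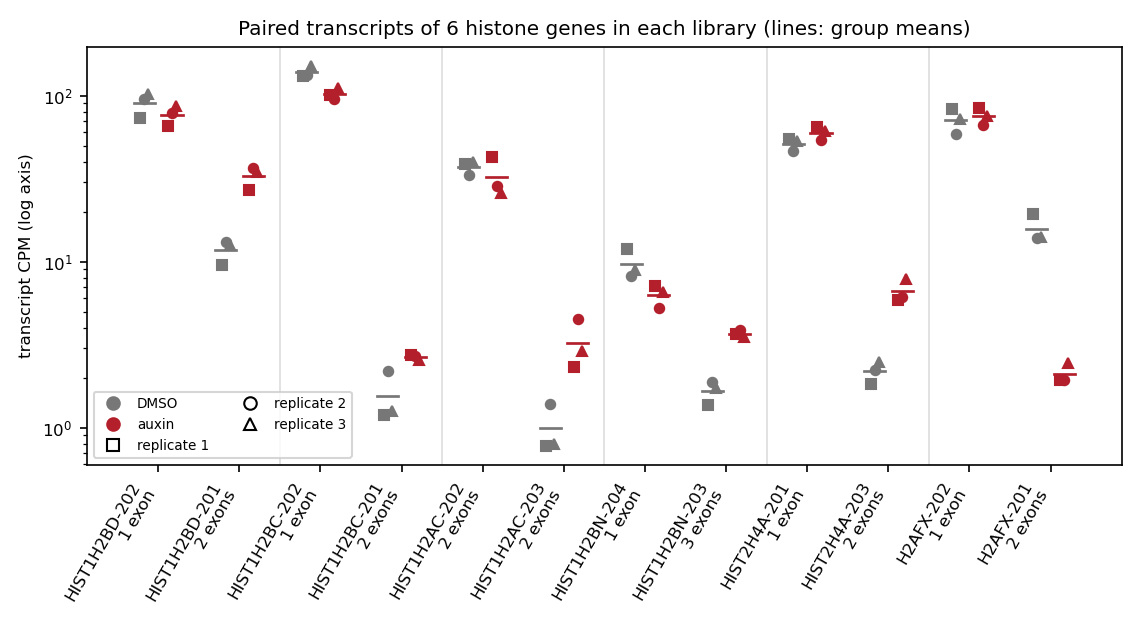
CPM (log axis) of pairs of transcripts of 6 histone genes in each library, with the number of exons under each name, symbols for replicate numbers and lines for group means. The auxin libraries lie above the DMSO libraries for HIST1H2BD-201, HIST1H2BN-203 and HIST2H4A-203, and below them for H2AFX-201.

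H2AFX went the opposite way. H2AFX-201, a transcript of 2 exons annotated for nonsense-mediated decay, stood at 19.3, 13.8 and 14.0 CPM in DMSO and at 1.94, 1.93 and 2.46 CPM after auxin, a log2 fold change of -2.90 ± 0.20 (edgeR adjusted p = 0.000531). The single-exon H2AFX-202 was not called at 0.08, and H2AFX-201 went from 18.1% ± 1.60 to 2.75% ± 0.45 of the gene. The call of H2AFX-201 held with each library left out (highest adjusted p = 0.00489), and its posterior SD reached 15.4% of the count. In H2AFY the minor transcripts H2AFY-202 and H2AFY-213 rose by 0.75 and 0.68, while H2AFY-201, the main one, was not called at 0.03. H2AFY-202 lost its call without DMSO replicate 2 or any auxin library, and H2AFY-213 without any of the 6 libraries (highest adjusted p = 0.113 and 0.157). H2AFY-213 also lost its call with the block (adjusted p = 0.0508). Among SLBP transcripts, SLBP-202 fell by 0.49.

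Genes that place histones into chromatin mostly fell. Of 32 histone chaperone and deposition genes 19 fell and 4 rose, with a median of -0.63 (22 and 8 with the block). The shares were 59.4% lower and 12.5% higher, against 33.4% and 27.8% of tested protein-coding genes and 26.9% and 25.4% of all tested genes. With the block 6789 of all 19725 tested genes fell and 7005 rose. CHAF1A, a subunit of the CAF-1 complex that deposits new H3 and H4 behind the fork, fell by 1.54, NASP, a carrier of H3 and H4, by 1.03, and DAXX, an H3.3 chaperone, by 1.72. HIRA and UBN1, of the other H3.3 deposition complex, rose by 0.26 and 0.28, while UBN2 and CABIN1 of the same complex were not called at -0.13 and -0.17. Both of the latter passed with the block (adjusted p = 0.00231 and 0.000998), and CABIN1 stood at 0.28 with GC-corrected offsets. ANP32E, which removes H2A.Z, fell by 0.63, in the same libraries in which H2AFZ and H2AFV fell.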

How the data were processed

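Each library has gene and transcript tables deposited by the authors. Per the file headers these hold an expected count (a fractional read estimate), a TPM and a posterior SD of the count, a signal in count units. STAR, DESeq2 and bcl2fastq 2.20 stand in the submitters' processing notes, and the counting step and its strand setting are not given in the sources used here. Expected counts were rounded and fitted over all genes with edgeR 4.0.16 in R 4.3.3 (filterByExpr, TMM, quasi-likelihood F test, Benjamini-Hochberg adjustment), with group as the term. The code was tested on simulated data. Alternatives used limma 3.58.1 on log2(TPM + 1) and log2(TPM + 0.1), DESeq2 1.42.0 and other scalings and filters. GC-corrected offsets came from a lowess fit per library.

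Replicates are labelled biological, with shared numbers. Deviations from group means correlated by 0.651, 0.265 and 0.276 between same-numbered libraries, all over the threshold of 0.1 for pairing, although DMSO replicates 2 and 3 correlated by 0.180 and 0.312 with auxin replicates 3 and 2. Named genes were SLBP, LSM11, every tested variant gene, the 3 most abundant HIST genes per family and the 3 called HIST genes of at least 1 CPM with the highest and the lowest log2 fold change; further members were named after their values were seen. The members and lists were chosen with earlier results of these data known. Summing the counts of copy pairs was added after values were seen. Values of some single S-phase markers are not reported here.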

Additional observations from a re-analysis of the deposited data

How the results depend on the processing

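The depth of these libraries leaves little counting error for most members, and the limits are 3 libraries per group, the scaling and the division of reads between near-identical copies. Of 729 values of named genes under the alternatives, 583 kept their direction and side of the threshold, 83 no longer passed, 32 newly passed and 31 reversed. Of the 29 called genes, 20 kept the call with each library left out in turn, and 9 were called the same way under all 21 alternatives. Causes of the changes below were not tested, except that fits with a library left out hold fewer samples.

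On log2(TPM + 0.1) and log2(TPM + 1), limma called 1017 and 970 genes higher and 3223 and 2966 lower. Both settings called 1 single-exon HIST gene higher, 5 and 4 lower, 0 HIST genes with a spliced transcript higher and 1 lower, 1 spliced variant gene lower, 2 processing genes higher and 0 chaperone genes higher. For single-exon HIST genes, the count higher was 11 with GC-corrected offsets, 2 with RLE factors, 2 with library size only, 7 with replicates 2 and 3 only and 9 with upper-quartile factors, and the count lower was 5 with GC-corrected offsets. Library size only gave 0 HIST genes with a spliced transcript higher and 1 chaperone gene higher. Spliced variant genes higher numbered 1 with GC-corrected offsets, 1 with replicates 2 and 3 only and 2 with upper-quartile factors, and those lower 2 with GC-corrected offsets, 2 with length-corrected offsets and 2 with upper-quartile factors. Upper-quartile factors called 13 processing and 7 chaperone genes higher, and across all tested genes 6534, against 5010 in the main fit. They called 17 transcripts of the members higher and 9 lower, against 9 and 18 in the main fit. Across all tested transcripts the calls moved likewise, from 6999 higher and 9331 lower to 10807 and 7781. Replicates 2 and 3 only called 7 chaperone genes higher, and 5914 of all tested genes.

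With the replicate block, 13 single-exon HIST genes, 8 HIST genes with a spliced transcript, 1 spliced variant gene, 13 processing genes, 8 chaperone genes and 18 transcripts were higher. The block with GC-corrected offsets gave 15, 7 and 2 higher for the first 3 of these classes. The block with length-corrected offsets gave 11, 8 and 3, with 14 processing and 8 chaperone genes higher and 18 single-exon HIST genes lower. Across all tested genes these 3 block settings gave 7005, 7051 and 7333 higher, against 5010 in the main fit. The block with length-corrected offsets gave 6599 of them lower, against 5311. Of all tested transcripts 10666 were higher with the block and 6999 without it. No member gene lost a call under the block alone, and of the called transcripts H2AFY-213 did.

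With 1 library left out, the counts ran from 1 to 3 for single-exon HIST genes higher, 2 to 4 for HIST genes with a spliced transcript higher, 2 to 3 for spliced variant genes lower, 2 to 4 for chaperone genes higher, and 3 to 6 and 9 to 17 for transcripts higher and lower. Across all tested genes these fits called from 3876 to 4979 higher and from 4493 to 5575 lower. H2AFB3 ran from -0.17 to 0.32, H3F3C from -0.68 to 0.081 and HIST1H2BD from -0.024 to 0.19.

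Directions of the named genes reversed as follows. GC-corrected offsets without and with the replicate block gave 0.73 and 0.73 for H2AFX, 0.017 and 0.023 for HIST1H1E, -0.059 and -0.058 for H3F3A, -0.071 and -0.068 for HIST1H2AG, and -0.015 and -0.011 for HIST1H2BD. Further members reversed with GC-corrected offsets too, among them HIST2H2AB at 0.097 and HIST1H2AJ at 0.34. Library size only gave -0.021 for H2AFB3, -0.049 for H2AFY and -0.030 for H3F3A. The log2(TPM + 0.1) and log2(TPM + 1) fits gave -0.051 and -0.012 for H2AFB3, -0.12 and -0.12 for H2AFY, -0.092 and -0.092 for H3F3A, -0.14 and -0.14 for H3F3B, -0.037 and -0.036 for HIST1H2AG, -0.026 and -0.025 for HIST1H2AC, and -0.20 and -0.19 for HIST1H2BD.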
